A study of Mus musculus with 6 samples.

Results

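The genes described are 8 transcription factors of prostate luminal epithelium: Foxa1, Gata2, Gata3, Sox9, Klf5, Elf3, Spdef and Creb3l4. They were chosen by symbol as a list of factors that work beside, or downstream of, the androgen receptor, and all 8 were found among the 24908 genes of the deposited table. The androgen receptor itself is not among these 8 genes, so the values below describe its partner factors only. The bulk RNA-seq comprised 6 libraries, 1 from each of 3 prostate lobes, the anterior (AP), dorsolateral (DLP) and ventral prostate (VP), of 1 wild-type mouse (WT) and 1 FVB Hi-MYC mouse (MYC). Both were male FVB littermates of 12 weeks on the same purified diet. The MYC animal was heterozygous for a human c-MYC transgene that the androgen-responsive ARR2Pb promoter directs to prostatic epithelium. RNA came from the dissociated cell suspension of each lobe. Each group is therefore 1 library of 1 animal, no difference has a replicate check, no p-value was computed, and genotype and animal cannot be told apart. In such bulk samples fewer cells of a type and less RNA per cell cannot be told apart either.

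In luminal cells the androgen receptor binds DNA together with other factors. FOXA1 is a pioneer factor that opens chromatin for the receptor, and GATA2 sits with it at many receptor-bound enhancers. GATA3 and SOX9 act in the growth and patterning of the prostate epithelium, KLF5 is a zinc finger factor of basal and luminal cells, and ELF3 and SPDEF are ETS family factors largely restricted to epithelia. CREB3L4, also called AIbZIP, is a membrane-bound factor of the endoplasmic reticulum of prostate epithelium, released by proteolysis.

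The epithelial keratins Krt8 and Krt18 were abundant in every library, between 387.9 and 1292.0 FPKM for Krt8 and between 447.6 and 1611.2 FPKM for Krt18, where FPKM is a read count scaled by transcript length and library depth. Both were highest in the 2 VP libraries. Krt8, Krt18, Epcam and Cdh1 belong to a list of 14 epithelial and luminal markers that did not all move together. At 2-fold or more, 1 of the 14 was higher in MYC than in WT in AP (Pigr) and 0 lower. In DLP 2 were higher (Krt19 and Pigr) and 1 lower (Prom1), and in VP 0 were higher and 3 lower (Tmprss2, Prom1 and Pigr). The estimated depth ran from 25.4 M mapped reads (WT AP) to 49.8 M (WT VP). The single Myc row, which does not separate the mouse gene from the transgene, read 200.6 to 230.0 FPKM in WT and 230.9 in the AP library labelled MYC, but 586.1 and 1695.6 in DLP and VP of that animal. It thus gave no check of the MYC label in AP. That same AP library held seminal vesicle secretory transcripts. The 9 markers of that gland summed to 524.1 FPKM there, nearly all of it Svs4 and Svs5, against 11.3 and 0 in the other MYC lobes (DLP and VP) and at most 0.186 in the WT libraries. Its part in the AP results was not tested.

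The sequence before the start site was available for 6 of the 8 genes, in 9 windows of 250 bases of the RefSeq annotation (GRCm38.p6), since some of these genes have several start sites. Of these windows 2 precede the outermost start of the gene (Elf3 and 1 of Gata2), and 7 precede a start site inside the gene's span. Sox9 and Klf5 had no entry. The full windows of Elf3 and Gata2 are shown because among the 8 these genes had the largest increase and the largest decrease between genotypes, Elf3 at chr1:135258473-135258722 on the minus strand and Gata2 at its outer start, chr6:88193641-88193890 on the plus strand, both running 5′ to 3′ up to the base before the start site.
Elf3: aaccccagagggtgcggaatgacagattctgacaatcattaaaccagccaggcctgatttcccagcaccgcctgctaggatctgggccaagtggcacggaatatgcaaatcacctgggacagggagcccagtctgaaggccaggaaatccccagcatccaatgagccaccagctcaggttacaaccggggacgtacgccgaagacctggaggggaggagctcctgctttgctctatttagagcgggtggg
Gata2: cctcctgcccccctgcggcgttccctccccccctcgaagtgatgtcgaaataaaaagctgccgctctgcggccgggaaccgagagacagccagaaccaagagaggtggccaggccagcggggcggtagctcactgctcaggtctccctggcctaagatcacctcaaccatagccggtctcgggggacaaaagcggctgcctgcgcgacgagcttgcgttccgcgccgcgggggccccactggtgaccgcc
The E-box CACGTG, the sequence that MYC binds with its partner MAX, occurred in 6.02% of the 32851 promoter windows of that length and in 0 of the 9 windows of these genes, reading both strands. The GATA letters AGATAA (9.99% of all windows) and the SOX letters ACAATG (10.7%) also had no match in them. The KLF letters GGGCGG (32.7% of all windows) were in 5 of the 9, in Gata3, Foxa1, both Gata2 windows and 1 of Creb3l4, and the ETS letters AGGAAG (29.5%) in 2, in Spdef and another window of Creb3l4. Such a search says only that these letters are not in the window.
Shorter stretches are shown for the genes whose windows hold letters recognised by factors of the androgen receptor complex, with the matched letters in capitals.
Foxa1: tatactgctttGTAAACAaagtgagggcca
Spdef: tctcactgacgTGTTCTttatgccttatga
Creb3l4: accagggtacaAGAACAggggctgcaaagc
The Foxa1 stretch (chr12:57546234-57546263, minus strand) holds the forkhead letters TGTTTAC on the reverse strand, 141 bases before an internal start site that lies 1918 bases inside the span of the gene, a motif present in 3.17% of all windows. The Spdef stretch (chr17:27729129-27729158, minus strand) and the stretch of 1 of the Creb3l4 windows (chr3:90242698-90242727, minus strand) hold AGAACA, the hexamer of the androgen response element, on the reverse and the forward strand, 196 and 166 bases before internal start sites that lie 2052 and 2032 bases inside the spans of these genes. This hexamer was in 16.1% of all windows. In Spdef it overlaps by its edge base the letters TGACGT, recognised by CREB and CREB3 factors and present in 6.47% of windows. These matches are descriptions of letters, not binding sites.

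Across the 3 WT lobes as deposited, Foxa1 was even, the GATA factors were lowest in VP, and Sox9, Elf3, Spdef and Creb3l4 were highest in VP. Ratios are given as FPKM ratios with an exact 95% interval that covers counting error only, and as log2 ratios of (FPKM + 1), on which a difference of at least 2-fold was called. Between VP and AP, 4 of the 8 genes were called higher in VP (Sox9, Elf3, Spdef and Creb3l4) and 2 lower (Gata2 and Gata3), where 7.89% of the 12361 genes that averaged 1 FPKM or more were called higher and 10.3% lower. Between DLP and AP, 1 of the 8 was higher (Spdef) and 0 lower (3.85% and 1.31% of all genes). Between VP and DLP, 0 were higher and 1 lower, Gata2 (2.63% and 6.29%). Krt8 and Krt18 were themselves higher in VP, and relative to their mean change 0 of the 8 genes were higher and 4 lower in VP than in AP (Foxa1, Gata2, Gata3 and Klf5). On that scale 0.971% of all genes were higher and 84.1% lower, so being lower was not particular to the 8 genes. The median log2 ratio there was -0.88 for the 8 genes and -1.63 for all genes. Between VP and DLP these medians were -0.92 and -1.71. The epithelial adhesion genes Epcam and Cdh1 had log2 ratios of -0.24 and -0.59 in the same comparison, and relative to them 4 of the 8 genes were higher and 1 lower, against 17.2% and 4.81% of all genes. All 3 lobe comparisons reuse the same libraries of the same mouse. The panels of levels by lobe show these patterns for each gene.

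**Figure D1:**
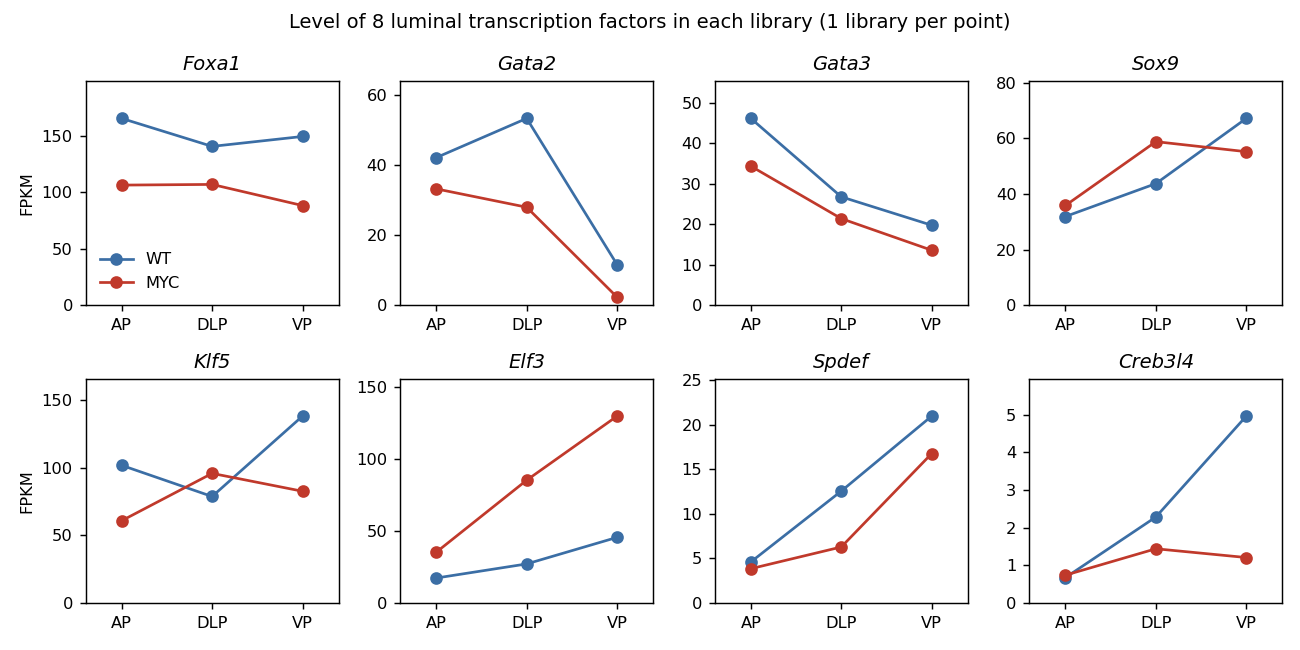
Level (FPKM) of each of the 8 factors in the AP, DLP and VP library of the WT mouse (blue) and the MYC mouse (red), 1 library per point with no error bar, lines only joining lobes of the same mouse. Elf3 is higher in MYC in every lobe, Foxa1, Gata2 and Gata3 are lower in MYC in every lobe as deposited (Gata2 and Gata3 in AP not so relative to Epcam and Cdh1), and Gata2 reaches 2.29 FPKM in MYC VP.

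Between genotypes the largest differences were an increase of Elf3 and a decrease of Gata2 and Creb3l4. In VP, 1 of the 8 genes was called higher in MYC (Elf3) and 2 lower (Gata2 and Creb3l4), where 6.88% of all genes were higher and 5.95% lower. In DLP 1 was higher (Elf3) and 0 lower, against 6.46% and 3.39% of all genes. In AP, between WT and the library labelled MYC, 0 were higher and 0 lower, against 2.05% and 0.599%. The median log2 ratio of the 8 genes was -0.27, -0.35 and -0.62 in AP, DLP and VP, while the median of all genes was 0.13, 0.03 and 0.04. Relative to Epcam and Cdh1 the AP median of the 8 genes was 0.19, with 2 values below 0 (Foxa1 and Klf5), and that of all genes 0.59. As deposited, the values of 5 genes in AP, 5 in DLP and 7 in VP lay below 0. Within the order of each gene's 6 levels, 4 of the 40 pairs of neighbouring libraries had a counting interval that included a ratio of 1, and these are named with their genes below.

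**Figure D2:**
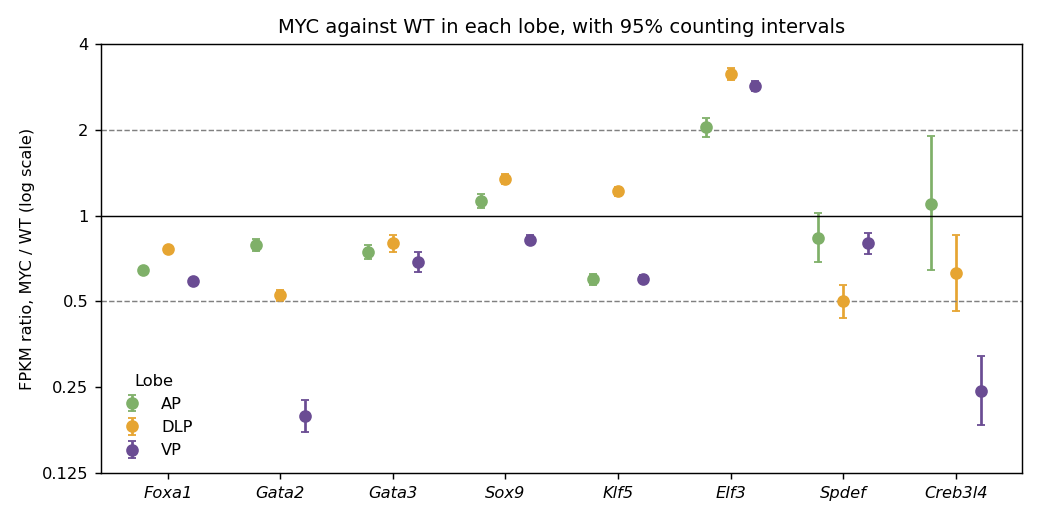
FPKM ratio of MYC over WT (log axis) for each factor in AP (green), DLP (orange) and VP (purple), with exact 95% counting intervals and dashed lines at 2-fold. Elf3 lies near or above 2 in all 3 lobes, and Gata2 (0.198) and Creb3l4 (0.243) in VP lie below 0.25.

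Foxa1 (chr12:57540628-57548029, GRCm38), the pioneer factor of the set, was the most abundant of the 8 genes in 5 of the 6 libraries. It read 165.4, 140.7 and 149.4 FPKM in WT AP, DLP and VP and 106.4, 107.0 and 88.3 FPKM in the corresponding MYC lobes. All 3 MYC libraries lay below all 3 WT libraries. The MYC over WT ratio was 0.643 (0.628 to 0.658) in AP, 0.761 (0.743 to 0.778) in DLP and 0.591 (0.577 to 0.604) in VP. None of these differences reached 2-fold, the log2 ratios being -0.63, -0.39 and -0.75. In the AP comparison 2.78% of all genes had a lower value than Foxa1. The log2 ratios stayed below 0 under every scaling tried. The AP value came up to -0.17 relative to Epcam and Cdh1, and the VP value was -1.02, past the threshold, with equal sums of FPKM without the 20 highest genes. As deposited Foxa1 was also the most even gene across lobes, with its highest lobe 1.18-fold over the lowest in WT and 1.21-fold in MYC. Relative to Krt8 and Krt18 its WT log2 ratio was -1.77 for VP over AP and -1.49 for VP over DLP, both past the threshold. The medians of all genes on that scale were -1.63 and -1.71. Its levels in MYC AP and MYC DLP could not be told apart within counting error (ratio 1.01, 0.981 to 1.03). Of its relatives, Foxa2 stayed at or below 0.104 FPKM and Foxa3 at or below 0.0439 FPKM in all 6 libraries, so Foxa1 made up nearly all FOXA transcript.

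Gata2 (chr6:88193891-88207032) showed the largest decrease of the set. Its level was 42.1, 53.3 and 11.6 FPKM in WT AP, DLP and VP and 33.2, 28.0 and 2.29 FPKM in the same lobes of MYC. VP was the lowest lobe in both genotypes, and in each lobe MYC was below WT. In WT, DLP exceeded VP 4.60-fold (4.37 to 4.85), a log2 ratio of VP over DLP of -2.11, and AP exceeded VP 3.64-fold (3.43 to 3.86). Between genotypes Gata2 fell in VP, where WT exceeded MYC 5.06-fold (4.45 to 5.75) with a log2 ratio of -1.94, and 0.987% of all genes had a lower value in that comparison. In DLP its MYC over WT ratio was 0.525 (0.502 to 0.547) with a log2 ratio of -0.91, short of the 2-fold threshold. In AP the ratio was 0.788 (0.754 to 0.824), a log2 ratio of -0.33 that turned to 0.13 relative to Epcam and Cdh1. In MYC the span from the highest to the lowest lobe was 14.5-fold, against 4.60-fold in WT. The 2.29 FPKM of MYC VP rest on about 282 reads, the lowest count of the gene.

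GATA2 is also made by stromal, endothelial and mast cells, so markers of other cell types were read beside it. The 8 fibroblast markers summed to 1243.0, 1310.2 and 656.2 FPKM in WT AP, DLP and VP and 1420.0, 722.0 and 199.4 FPKM in the corresponding MYC lobes, the greater part of each sum being Dcn. Gata2 and this sum were both lowest in MYC VP and next lowest in WT VP. They differed in AP, where the fibroblast sum was higher in MYC and Gata2 was lower. Of the 8 fibroblast markers in VP, 0 were called higher and 3 lower (Pdgfra, Dcn and Lum), while in DLP 2 were higher (Col1a1 and Col3a1) and 2 lower (Pdgfra and Dcn). In AP 3 were called higher (Col1a1, Col1a2 and Col3a1) and 0 lower. The 8 endothelial markers had sums of 27.9 in WT VP and 32.8 in MYC VP and of 131.1 in WT DLP and 152.2 in MYC DLP, against 180.1 in WT AP. Of them 0 were called in AP and DLP, and in VP 1 was higher (Egfl7) and 0 lower, with 5 values above 0 and 3 below. The mast cell protease gene Cpa3 read 3.67, 0.408 and 0.484 FPKM in WT AP, DLP and VP and 7.10, 1.59 and 0.0195 in MYC. The 8 smooth muscle markers summed to 243.1, 431.9 and 368.4 FPKM in WT AP, DLP and VP and to 386.0, 251.6 and 224.0 in MYC. Of them 0 were called in AP, 4 were lower in DLP (Myh11, Cnn1, Des and Synm) and 3 in VP (Myh11, Des and Synm), with 0 higher. All 8 values lay below 0 in DLP and in VP and above 0 in AP. The part of stromal, endothelial and mast cells in the Gata2 difference was not tested. Relative to the mean change of Krt8 and Krt18, the log2 ratio of Gata2 was -0.17, -1.14 and -1.67 in AP, DLP and VP.

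Gata3 (chr2:9857078-9887953) followed the lobes but little the genotype. It measured 46.1, 26.7 and 19.7 FPKM in WT AP, DLP and VP and 34.3, 21.4 and 13.6 FPKM in the same lobes of MYC. The order AP, DLP, VP held in both genotypes, and MYC was below WT in each lobe. AP exceeded VP 2.34-fold (2.19 to 2.49) in WT, a called difference whose log2 ratio of VP over AP went from -1.18 to -0.77 and was no longer called relative to Epcam and Cdh1, and 2.53-fold (2.35 to 2.72) in MYC. Between genotypes the log2 ratios were -0.42, -0.31 and -0.51 in AP, DLP and VP, none of them called, and the AP value turned to 0.05 relative to Epcam and Cdh1. The ratio of Gata3 to Gata2 was 1.09, 0.502 and 1.70 in WT AP, DLP and VP, and 1.03, 0.764 and 5.92 in MYC. Of the other 4 GATA genes, Gata6 reached 1.15 FPKM in WT AP and Gata5 0.547 FPKM in MYC DLP, and none passed the minimum mean of 1 FPKM.

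Sox9 (chr11:112782210-112787757), a high mobility group factor of prostate bud growth, differed little between genotypes. It was at 31.9, 43.7 and 67.2 FPKM in WT AP, DLP and VP and 35.9, 58.8 and 55.2 FPKM in the corresponding MYC lobes. As deposited, in WT the VP library was the highest and AP the lowest, and in MYC AP was again the lowest. The order of the MYC lobes depended on the scaling. The log2 ratio of VP over DLP was -0.09 as deposited and 0.08 with medians of ratios. Over all settings it ran from -1.17 to 0.36, and that of VP over AP from -0.92 to 0.79. WT VP exceeded WT AP 2.11-fold (2.0 to 2.22), a log2 ratio of 1.05, but relative to Krt8 and Krt18, which were themselves higher in VP, this value turned to -0.57, relative to Epcam and Cdh1 it was 1.47, and with equal sums of FPKM it was 0.92 and no longer called. The median of all genes relative to Krt8 and Krt18 was -1.63. The MYC over WT ratio was 1.12 (1.06 to 1.19) in AP, 1.35 (1.29 to 1.40) in DLP and 0.822 (0.792 to 0.852) in VP. The log2 ratios of 0.16, 0.42 and -0.28 were all within 2-fold, and over the alternatives the AP value came down to 0.02 and the VP value up to -0.02. Of 15 SOX genes, 9 averaged 1 FPKM or more, and 0 were called in AP and DLP. In VP 2 were called higher, Sox4 and Sox12, and 0 lower. Sox4, which is broadly made in embryonic and tumour tissue, read 8.51 FPKM in the VP of WT and 23.2 in that of MYC (log2 ratio 1.35), so that the ratio of Sox9 to Sox4 was 7.90 in WT VP and 2.38 in MYC VP.

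Klf5 (chr14:99298691-99313412) was within 2-fold between genotypes in every lobe as deposited. The levels were 101.8, 78.7 and 138.2 FPKM in WT AP, DLP and VP and 60.8, 95.8 and 82.6 FPKM in the same lobes of MYC. As deposited the WT library of VP was highest and that of DLP lowest, and in MYC the DLP library was highest and AP lowest. These orders depended on the scaling. In WT the log2 ratio of VP over AP went to -1.18 and that of VP over DLP to -0.77 relative to Krt8 and Krt18, where the medians of all genes were -1.63 and -1.71. In MYC the log2 ratio of VP over DLP went to 0.24 relative to Epcam and Cdh1. The MYC over WT ratio was 0.597 (0.573 to 0.624) in AP, 1.22 (1.17 to 1.26) in DLP and 0.598 (0.578 to 0.618) in VP. The log2 ratios of -0.73, 0.28 and -0.74 were all short of the threshold. In the AP comparison 1.74% of all genes had a lower value than Klf5. Over the alternatives the AP value came up to -0.27 (relative to Epcam and Cdh1) and the DLP value down to 0.05 (relative to Krt8 and Krt18), and the VP value was -1.01, past the threshold, with equal sums without the 20 highest genes. KLF5 is also made by basal cells, so their markers were read beside it. The 8 basal markers summed to 2377.1, 1603.0 and 754.9 FPKM in WT AP, DLP and VP and to 1284.7, 2129.2 and 494.0 in MYC. The sum was lower in MYC in AP and VP and higher in DLP, as Klf5 was, but WT VP held the highest Klf5 with the lowest basal sum of the WT lobes. Single basal markers did not all follow the sum. In AP 1 was called higher (Trp63) and 2 lower (Krt14 and Krt17), with 3 of the 8 values above 0 and a log2 ratio of 0.0031 for Krt5. The DLP libraries had 3 called higher (Krt5, Trp63 and Ngfr) and 0 lower, and the VP libraries 1 called lower (Trp63) and 0 higher. The part of basal cells was not tested. Among 17 KLF genes, 13 passed the minimum mean, and 0 were called in either direction in any of the 3 lobes. Klf4, a paralog of terminal epithelial differentiation, read 116.6, 150.7 and 90.0 FPKM in WT AP, DLP and VP and 99.7, 103.7 and 72.7 in MYC.

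Elf3 (chr1:135253574-135258472), an epithelial ETS factor induced by inflammatory signals in many epithelia, was the only gene of the set called higher in MYC than in WT. It stood at 17.3, 27.1 and 45.6 FPKM in WT AP, DLP and VP and 35.3, 85.3 and 129.9 FPKM in the corresponding MYC lobes. As deposited the lobe order AP, DLP, VP was kept in MYC, and each MYC library was above WT of its lobe. Relative to Krt8 and Krt18 the log2 ratio of VP over DLP turned to -0.84 in WT and -0.48 in MYC. The medians of all genes there were -1.71 and -1.15. The MYC over WT ratio was 3.15 (3.00 to 3.31) in DLP and 2.85 (2.75 to 2.96) in VP, with log2 ratios of 1.62 and 1.49. In AP the FPKM ratio was 2.04 (1.89 to 2.21), but the log2 ratio of (FPKM + 1) was 0.99, just under the threshold, so the gene was not called there. Between 97.2% and 97.9% of all genes had a lower log2 ratio than Elf3 in each of the 3 comparisons. Elf3 passed Foxa1 as the most abundant of the 8 genes in MYC VP. The ratio of Foxa1 to Elf3 was 9.56, 5.19 and 3.28 in WT AP, DLP and VP and 3.02, 1.25 and 0.679 in MYC. Among all genes of the table, Elf3 ranked 1216 in WT VP and 390 in MYC VP by FPKM. In WT its VP level was 2.64-fold (2.44 to 2.85) over AP with a log2 ratio of 1.35. Relative to Krt8 and Krt18 this ratio turned to -0.27, against a median of -1.63 for all genes. The genotype difference kept its direction on that scale, with log2 ratios of 1.15, 1.38 and 1.75 in AP, DLP and VP.

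Immune cell markers were higher in 2 of the 3 lobes in which Elf3 was higher. The 12 hematopoietic markers summed to 72.2 FPKM in WT DLP against 404.2 in MYC DLP, and to 47.6 in WT VP against 274.9 in MYC VP, but to 187.5 in WT AP against 175.9 in MYC AP. Of 11 that passed the minimum mean, 0 were called in AP, 10 were higher in DLP and 6 were higher in VP, with 0 lower in any lobe. Cd79a passed that minimum only through MYC DLP (5.06 FPKM), where it was called higher. Across lobes within WT the order was opposite, Elf3 being lowest and the immune sum highest in AP. Markers of luminal progenitor cells also differed. The 9 summed to 571.3, 724.8 and 510.4 FPKM in WT AP, DLP and VP and to 881.6, 1271.0 and 428.8 in MYC. In AP 5 were higher and 0 lower (Krt4, Psca, Cldn10, Wfdc2 and Ppp1r1b), in DLP 4 were higher and 0 lower (Krt4, Krt7, Ly6a and Wfdc2), and in VP 0 were higher and 3 lower (Krt4, Cldn10 and Ppp1r1b). The part of immune and of progenitor cells in the Elf3 difference was not tested.

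**Figure D3:**
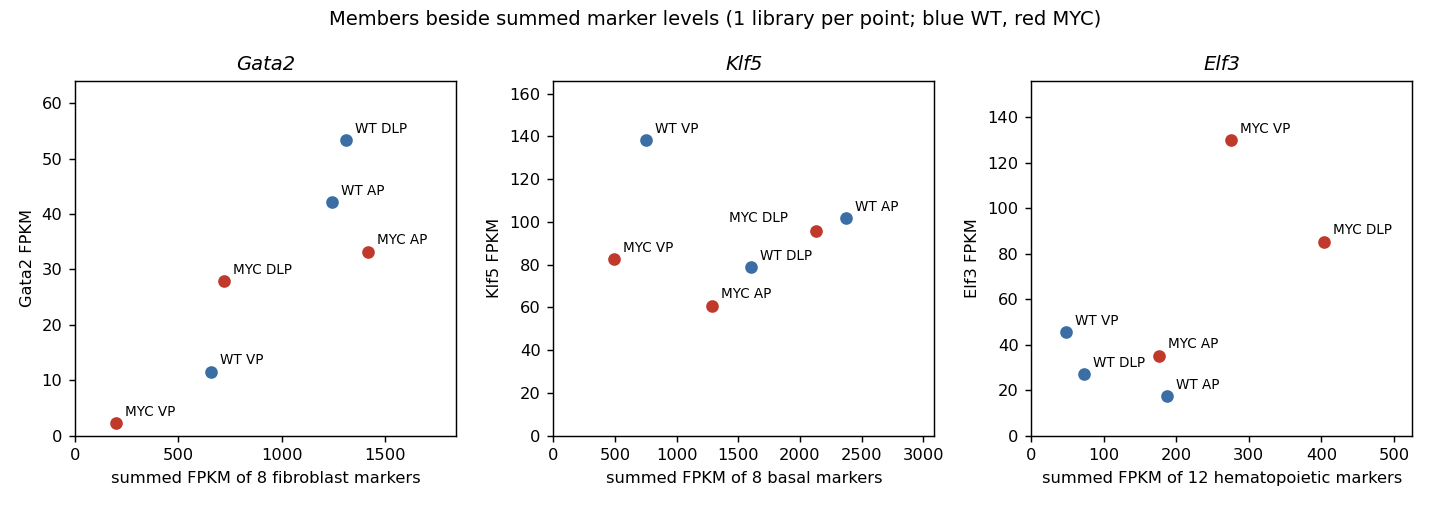
FPKM of Gata2, Klf5 and Elf3 in each library against the summed FPKM of fibroblast, basal and hematopoietic markers (blue WT, red MYC, 1 library per point). Gata2 and the fibroblast sum are both lowest in MYC VP (2.29 and 199.4), WT VP joins high Klf5 with a low basal sum (138.2 and 754.9), and Elf3 differs between MYC AP (35.3) and WT AP (17.3) at hematopoietic sums of 175.9 and 187.5.

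Spdef (chr17:27714446-27731003), the ETS factor of secretory and goblet cells, followed the lobes. It read 4.59, 12.5 and 20.9 FPKM in WT AP, DLP and VP and 3.84, 6.27 and 16.7 FPKM in the same lobes of MYC. As deposited AP was the lowest and VP the highest lobe in both genotypes. In WT, VP exceeded AP 4.56-fold (3.87 to 5.39) and DLP exceeded AP 2.73-fold (2.3 to 3.25), both called. Relative to Krt8 and Krt18 the WT log2 ratio of VP over AP was 0.35 and no longer called, and that of VP over DLP turned to -0.88. The medians of all genes on that scale were -1.63 and -1.71. Between genotypes the ratio was 0.50 (0.437 to 0.571) in DLP and 0.799 (0.736 to 0.867) in VP. In AP it was 0.836 (0.685 to 1.02), an interval that includes 1. With log2 ratios of -0.21, -0.90 and -0.31 none was called, although relative to Krt8 and Krt18 the DLP value was -1.13. The ratio of Elf3 to Spdef, the other epithelial ETS factor of the set, was 3.77, 2.16 and 2.18 in WT AP, DLP and VP and 9.19, 13.6 and 7.76 in MYC.

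The remaining ETS genes put these values in context. Of 22, 21 passed the minimum mean, and 0 were called in AP. In both DLP and VP 2 were higher, Elf3 and Spi1, and 1 was lower, Etv1. Spi1, the myeloid factor PU.1, read 2.92 FPKM in DLP of WT and 9.09 in DLP of MYC, and 1.26 and 4.34 in their VP, and so moved with the immune markers. Ehf, another ETS factor of epithelia, was within 2-fold in every lobe, at 57.2, 46.4 and 83.2 FPKM in WT AP, DLP and VP and 64.3, 41.7 and 60.6 in MYC. The ratio of Elf3 to Ehf was 0.302, 0.585 and 0.548 in the WT lobes and 0.548, 2.05 and 2.14 in MYC, so that Elf3 was below Ehf in each WT lobe and above it in MYC DLP and MYC VP.

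Creb3l4 (chr3:90237498-90244582) was the least abundant of the 8 genes in all 6 libraries. It measured 0.673, 2.28 and 4.97 FPKM in WT AP, DLP and VP and 0.738, 1.44 and 1.21 FPKM in the corresponding MYC lobes, from between 22 and 316 estimated reads. As deposited WT VP stood above the other libraries. In WT the VP level was 7.38-fold (4.76 to 11.9) that of AP, with a log2 ratio of 1.83 that was 0.21 and no longer called relative to Krt8 and Krt18, a scale on which VP over DLP was -0.71. The medians of all genes on that scale were -1.63 and -1.71. Between genotypes Creb3l4 fell in VP, where WT exceeded MYC 4.12-fold (3.11 to 5.43), with a log2 ratio of -1.44. In DLP the MYC over WT ratio was 0.630 (0.463 to 0.857), and in AP 1.10 (0.646 to 1.91). The highest lobe was 7.38-fold over the lowest in WT and 1.95-fold in MYC, and MYC DLP and MYC VP could not be told apart within counting error (0.838, 0.586 to 1.21, for VP over DLP).

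Creb3l1 was the other gene of the same endoplasmic reticulum family that was called in VP. Of 9 listed CREB3 and ATF6 factors and their proteases, 8 passed the minimum mean, and 0 were called in AP or DLP. In VP 0 were higher and 2 lower, Creb3l4 and Creb3l1. Creb3l1, a regulator of secretory capacity, read 33.9 FPKM in the VP of WT and 3.22 in that of MYC, a log2 ratio of -3.05. Mbtps1, the site-1 protease that cleaves these factors, was at 58.5 (WT) and 33.6 FPKM (MYC) in DLP, and at 47.0 and 25.9 FPKM in VP, short of 2-fold. Atf6b, a stress sensor of that membrane, had a log2 ratio of 0.76 in VP. Agr2, a disulfide isomerase of secretory cells, fell from 468.9 to 64.3 FPKM between the DLP libraries and from 725.1 to 48.4 FPKM between the VP libraries, log2 ratios of -2.85 and -3.88. It is on a list of 11 secretory cell genes tied to SPDEF, of which 7 passed the minimum mean. In VP 0 of these 7 were higher and 3 lower (Agr2, Creb3l1 and Fcgbp). In DLP 2 were higher (Tff3 and Clca1) and 2 lower (Agr2 and Fcgbp), and in AP 1 was higher (Clca1) and 0 lower. Tff3 passed the minimum mean only through MYC DLP, with 8.81 FPKM there and at most 0.881 in any other library. Fcgbp, a mucus protein, already differed among the WT lobes, at 133.8 FPKM in AP, 56.2 in DLP and 2.46 in VP.

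Few of the cofactors through which steroid receptors act were called, as few of all genes were. Of 20 listed coregulators, all passed the minimum mean, and 0 were called in AP (2.05% of all genes higher and 0.599% lower). In DLP and VP 0 were higher (6.46% and 6.88% of all genes) and 1 lower (3.39% and 5.95%), Ncoa4 in both. This receptor coactivator, also the cargo receptor of ferritin autophagy, read 42.7, 209.3 and 100.6 FPKM in WT AP, DLP and VP and 70.1, 55.3 and 49.5 FPKM in the same lobes of MYC. Its log2 ratio was -1.90 in DLP, -1.01 in VP and 0.70 in AP.

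**Figure D4:**
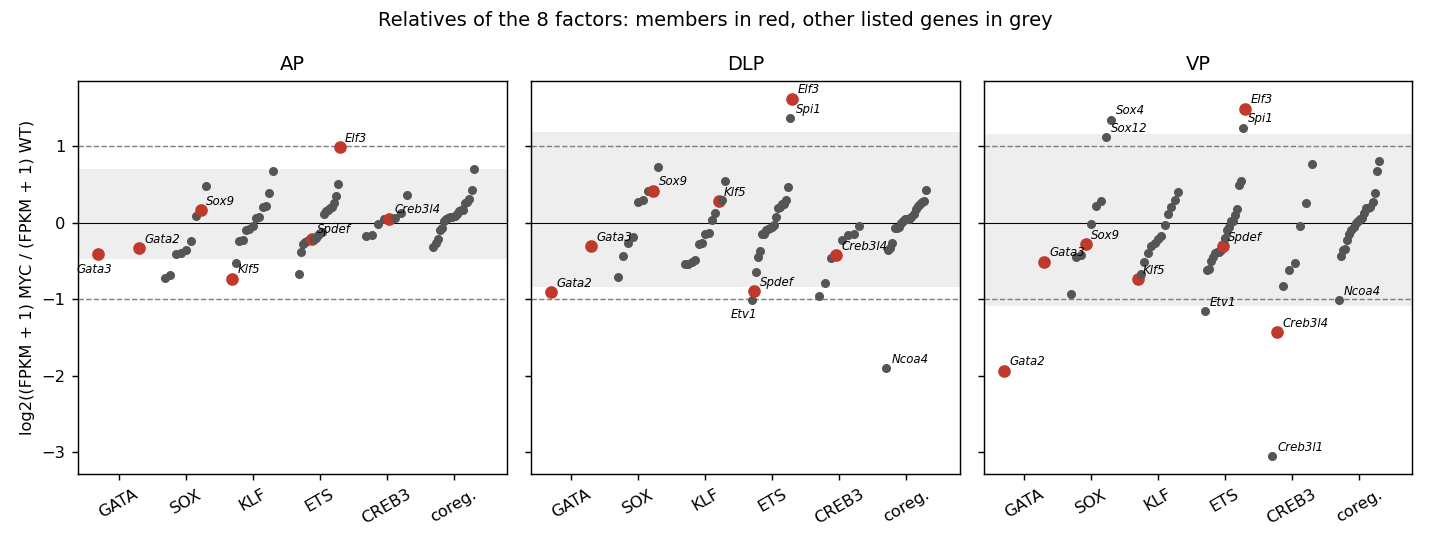
Log2 ratio of (FPKM + 1), MYC over WT, of the genes that averaged 1 FPKM or more in 5 factor families and a list of 20 steroid receptor coregulators (coreg.), with the factors of the set in red (Foxa1 is not plotted). The grey band spans the 5th to the 95th percentile of all 12361 genes and dashed lines mark 2-fold. Of the factors of the set, Elf3 lies above the band in every lobe. Below it lie Klf5 (-0.73) in AP, Gata2 (-0.91) and Spdef (-0.90) in DLP, and Gata2 (-1.94) and Creb3l4 (-1.44) in VP. Creb3l1 (-3.05) is among the other listed genes below it in VP.

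As deposited, the lobes of the MYC mouse differed in Gata2, Gata3, Elf3 and Spdef. Between MYC VP and MYC AP, 2 genes were called higher (Elf3 and Spdef) and 2 lower (Gata2 and Gata3), where 8.98% and 16.1% of all genes were called. Between MYC DLP and MYC AP 1 was higher (Elf3) and 0 lower, against 4.54% and 3.49%. Between MYC VP and MYC DLP 1 was higher (Spdef, 2.67-fold, 2.35 to 3.05) and 1 lower (Gata2), against 3.54% and 14% of all genes. Relative to Krt8 and Krt18 these calls of Elf3 and Spdef ended. VP over AP was then 0.32 for Elf3 and 0.35 for Spdef (median of all genes -1.54). DLP over AP was 0.80 for Elf3 (median -0.38), and VP over DLP 0.21 for Spdef (median -1.15). These MYC libraries are the ones used for the genotype comparison, so the values are not separate evidence. As deposited, Gata3, Elf3 and Spdef had the same lobe order in both genotypes. The summed level of the 8 genes ran from 310.4 FPKM in MYC AP to 457.6 in WT VP.

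Genes with a similar profile were sought among 5360 genes that averaged 10 FPKM or more, by the root mean square difference of centred log2(FPKM + 1) over the 6 libraries. This distance tends to be larger for genes that vary more, so it does not rank the 8 genes. Klf5 was closest to Cdc42ep1, at 0.0622, and Gata3 to Usp53 at 0.0641. Foxa1 was closest to Rhbdd1 (0.0710) and Pdlim5 (0.0910), and Sox9 to Prr15l (0.0925) and Araf (0.0961). Gata3 was next closest to P2ry2 (0.0769) and Klf5 to Hk2 (0.131). Gata2 was nearest to Id3 (0.201), an inhibitor of helix-loop-helix factors, and Ccdc80 (0.211), an extracellular matrix gene. Elf3 was nearest to Ankrd13b at 0.233 and the interferon-induced gene Ifit1 at 0.243. Creb3l4 lay near Lactb2 (0.191) and Tram1 (0.198), the latter a gene of the protein channel of the endoplasmic reticulum. Ifit1 read 3.44, 3.77 and 9.64 FPKM in WT AP, DLP and VP and 7.40, 20.1 and 20.4 in MYC.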

How the data were processed

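Bulk RNA-seq of 6 libraries was analysed, 1 per lobe and genotype, grouped by the sample titles. Per the labels, RNA was extracted from an equal number of cells, and a fixed mass of total RNA per sample went into stranded poly(A) libraries, sequenced as single-end reads. The submitters' processing notes name bcl2fastq 2.18, STAR, Cufflinks and the build mm10. The deposited values are FPKM, which the authors made with Cufflinks, since they carry decimals, with library totals from 374085 to 483143. The study's methods speak of read counts, but no count model was run.

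The measure was the log2 ratio of (FPKM + 1) between 2 libraries, over the 12361 genes that averaged 1 FPKM or more, which all 8 factors did, and a difference of at least 2-fold was called. A pseudocount of 1 understates the change of low genes. Depth was estimated from the steps in FPKM of single-exon genes below 0.3 FPKM, where 46.8% to 54.5% of the values fell within 3% of an integer read number (6% would by chance). Depth, FPKM and transcript length (mean, less 200 bases) gave estimated reads and from them exact Clopper-Pearson intervals of the ratio. These cover counting error only. The scripts were tested on simulated libraries. Coordinates are those of RefSeq on GRCm38.p6, the assembly of mm10.

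The 8 genes and all gene lists were chosen with earlier results of these data known. The rule for named genes took all 8 factors in every library, from each list the genes called in the comparison described and, for the families, those averaging 10 FPKM or more (of which a part is printed), and the 2 genes with the most similar profile. Cpa3, Foxa2, Foxa3, Gata5, Gata6 and Myc were named in addition, after their values were seen. Some genes that the rule names are not reported here. Exon structure on this assembly was not used here. Alternatives were 4 other scalings, a pseudocount of 0.1, no filter, a minimum mean of 10 FPKM, thresholds of 1.5-fold and 4-fold, and ratios relative to Krt8 and Krt18 or to Epcam and Cdh1. The software was Python 3.11.15 (scipy 1.17.1, pandas 2.3.3, numpy 2.4.6, matplotlib 3.10.9).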

Additional observations from a re-analysis of the deposited data

Results flagged for a closer look

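For Sox9 and Klf5 the genotype difference pointed in opposite directions in different lobes, with counting intervals that excluded a ratio of 1. This criterion was chosen after the data were seen, since no gene was at least 1.5-fold in both directions. The log2 ratio of Sox9 was 0.16 in AP and -0.28 in VP, a difference of -0.44 for VP less AP. For Sox9 in DLP (0.42) and VP the difference was -0.70. Klf5 had a log2 ratio of -0.73 in AP and 0.28 in DLP, a difference of 1.01. For Klf5 in DLP and VP (-0.74) the difference was -1.02. With 1 library per lobe and genotype none of these differences was tested against the spread between animals. Over the alternatives the value of Sox9 came down to 0.02 in AP with medians of ratios and up to -0.02 in VP relative to Krt8 and Krt18, and on the latter scale that of Klf5 in DLP was 0.05. The differences shrank on both epithelial scales except that of Sox9 between VP and AP relative to Epcam and Cdh1. Relative to Krt8 and Krt18 they were -0.35 (VP less AP) and -0.20 (VP less DLP) for Sox9 and 0.61 (DLP less AP) and -0.52 (VP less DLP) for Klf5. Relative to Epcam and Cdh1 they were -0.68 and -0.39 for Sox9 and 0.47 and -0.71 for Klf5. With equal sums of FPKM they were -0.65 and -0.88 for Sox9 and 0.99 and -1.20 for Klf5.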

How the results depend on the processing

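With 1 library per group there is no replicate to leave out, and depth limits mainly Creb3l4 and Spdef in AP. No paired analysis was possible because each genotype is 1 mouse, so that pairing its lobes would compare tissues of the same animals and give no replicate of a genotype. Over the alternatives the log2 ratio of MYC over WT ranged from 1.38 to 1.65 in DLP and from 1.22 to 1.75 in VP for Elf3, from -2.29 to -1.67 in VP for Gata2, from -1.96 to -1.17 in VP for Creb3l4, and stayed below 0 in every lobe for Foxa1. In AP, Elf3 ranged from 0.84 to 1.45, and Gata2 (0.13), Gata3 (0.05) and Spdef (0.25) lay above 0 relative to Epcam and Cdh1. The scalings moved the median of all genes, to between -0.00 and 0.59 for AP and between -0.18 and 0.30 for VP.

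Relative to Krt8 and Krt18, the WT VP over AP log2 ratio turned to -0.57 for Sox9 and -0.27 for Elf3. On that scale, with the share of all genes in parentheses, 1 factor was higher in MYC AP (3.19%) and 2 lower in MYC DLP (6.03%), 0 were higher (0.971%) and 4 lower (84.1%) in WT VP over AP, 3 lower (92.8%) in WT VP over DLP, 0 higher (1.66%) and 1 lower (9.1%) in MYC DLP over AP, 0 higher (0.817%) and 5 lower (77.5%) in MYC VP over AP, and 0 higher (0.582%) and 6 lower (61.7%) in MYC VP over DLP. Most genes thus shifted with the factors in the VP comparisons. Relative to Epcam and Cdh1, 1 was higher in MYC AP (9.38%), 2 higher in WT DLP over AP (8.07%), 1 lower in WT VP over AP (4.81%), where the call of Gata3 ended, 1 higher in WT VP over DLP (3.45%), 0 higher in MYC DLP over AP (2.48%) and 2 higher in MYC VP over DLP (11.2%). Medians of ratios gave 2 higher in WT VP over DLP (4.01%). Equal sums without the 20 highest genes gave 2 lower in MYC DLP (4.51%) and 4 in MYC VP (9.55%). A pseudocount of 0.1 gave 1 higher in MYC AP (4.23%), 2 in WT DLP over AP (5.95%) and 1 in WT VP over DLP (3.63%). A minimum mean of 10 FPKM drops Creb3l4 and gave 1 lower in MYC VP (7.2%), Gata2, and 3 higher in WT VP over AP (9.89%).

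At 1.5-fold, 1 was higher (7.53%) and 2 lower (3.13%) in MYC AP, 2 lower (9.44%) in MYC DLP, 4 lower (14.9%) in MYC VP, 3 higher (12.2%) and 1 lower (4.98%) in WT DLP over AP, 5 higher (6.93%) in WT VP over DLP, 4 higher (13.3%) and 1 lower (8.24%) in MYC DLP over AP, 3 higher (20.2%) in MYC VP over AP, and 2 higher (10.3%) and 2 lower (24.8%) in MYC VP over DLP. At 4-fold, where 0.121% to 4.51% of all genes were called in any direction of a comparison, 0 were higher in MYC DLP, 0 higher or lower in MYC VP, 0 higher in WT DLP over AP, 0 higher or lower in WT VP over AP, 0 higher in MYC DLP over AP, 0 higher and 1 lower in MYC VP over AP, and 0 higher in MYC VP over DLP. The cause of the changes with scaling was not tested.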
